A study of Mus musculus with 17 samples.

Results

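The small nucleolar RNA (snoRNA) host genes Snhg1, Snhg3, Snhg5, Snhg6, Snhg8, Snhg12 and Gas5 were followed in cell-free RNA from mouse plasma. They were picked by name, 7 of 49585 genes listed for each of 17 libraries. Each library was made from the plasma of 1 wild-type C57BL/6J mouse, 13 weeks old, which is circulating RNA shed by many tissues rather than the RNA of a cell type. Mice kept in microgravity on the International Space Station (MG, n = 6) were compared with mice centrifuged on board at an artificial gravity of 1 G (AG, n = 6) and with mice kept on the ground (GC, n = 5), so both flight groups share launch, housing in orbit and return. A kit made for small RNAs was used, as the plasma RNA was degraded. The libraries held 84657 to 277682 counts, most of them from Tmem38b, Polr2m, Lars2 and Rn18s-rs5, which left 10182 to 44415 counts for all other genes. These 4 dominant genes took 86.9 to 91.7% of counts in AG, 70.6 to 83.5% in MG and 76.9 to 83.1% in GC. Shares of host genes are therefore given of the counts outside these 4 genes unless stated.

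snoRNAs are short nuclear RNAs that guide the modification of ribosomal and other RNAs. The C/D class, named after its C and D boxes, guides 2′-O-methylation, and the H/ACA class guides pseudouridylation. Most mammalian snoRNAs are cut from introns of a host gene after splicing. Many hosts, Gas5 (growth arrest specific 5) and the Snhg genes among them, code for no known protein, and their spliced RNA is often removed by nonsense-mediated decay while the snoRNA stays in its protein complex.

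The annotation (GENCODE M21, mouse build GRCm38, the same assembly as mm10) placed 27 snoRNA genes inside the 7 hosts on the same strand. Of these, 17 were C/D, 6 H/ACA and 4 carried a name and sequence that assigned neither class. The sequences below are examples, ordered from the most-read hosts to the hosts with few or no reads, and none of Snhg3 is among them. They are GENCODE transcript sequences written 5′ to 3′ as DNA letters. Capitals mark the C box (TGATGA within the first 15 bases) with the D box (CTGA within the last 12 bases), or the ACA found 3 bases from the 3′ end of H/ACA snoRNAs. The motifs were searched on the RNA strand only.
Gm25855, C/D, Snhg1, chr19:8723993-8724064, plus strand: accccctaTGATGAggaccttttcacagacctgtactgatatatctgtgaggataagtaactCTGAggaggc
Gm24452, C/D, Snhg1, chr19:8724531-8724602, plus strand: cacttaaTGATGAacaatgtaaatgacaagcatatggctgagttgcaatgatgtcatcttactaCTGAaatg
Gm22357, C/D, Gas5, chr1:161036057-161036139, plus strand: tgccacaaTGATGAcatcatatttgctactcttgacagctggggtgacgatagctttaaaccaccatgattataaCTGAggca
Snord80, C/D, Gas5, chr1:161037601-161037681, plus strand: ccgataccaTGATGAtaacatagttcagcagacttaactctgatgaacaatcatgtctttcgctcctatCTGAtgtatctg
Snord50a, C/D, Snhg5, chr9:88521529-88521600, minus strand: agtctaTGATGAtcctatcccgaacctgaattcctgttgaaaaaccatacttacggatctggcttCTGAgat
Snord50b, C/D, Snhg5, chr9:88521797-88521868, minus strand: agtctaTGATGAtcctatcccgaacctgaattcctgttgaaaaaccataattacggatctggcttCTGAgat
Snord99, C/D, Snhg12, chr4:132310691-132310764, plus strand: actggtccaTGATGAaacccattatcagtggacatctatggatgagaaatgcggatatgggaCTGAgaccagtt
Snora24, H/ACA, Snhg8, chr3:123507937-123508066, minus strand: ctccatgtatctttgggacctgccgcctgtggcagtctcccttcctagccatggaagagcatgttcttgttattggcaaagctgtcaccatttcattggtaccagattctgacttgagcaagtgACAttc
Snord87, C/D by name, no box in these windows, Snhg6, chr1:9942463-9942549, minus strand: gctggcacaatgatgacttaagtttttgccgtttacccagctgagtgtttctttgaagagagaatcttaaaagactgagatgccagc

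Both boxes were found in 13 of the 27 sequences and the ACA in 5, against 19.4% and 18.3% of all 1507 annotated snoRNA sequences. The pair in Snhg5, Snord50a and Snord50b, was nearly the same sequence, with 71 of 72 aligned bases identical, so reads of one can match the other. Snhg1 held 8 snoRNA genes and Gas5 held 9, none of them assigned to H/ACA. Snhg12 held 3 H/ACA genes and Snord99. Snhg3 held only the H/ACA pair Snora73a and Snora73b.

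The place of the snoRNA within its host differed among the 7 genes. In Snhg1, exons of the annotated transcripts together covered the whole gene (chr19:8723475-8726443), and 14 of its 18 transcripts retain introns. In Gas5 (chr1:161034422-161038539) they covered 91.3%, with 20 of 25 transcripts retaining introns, and in Snhg5 (chr9:88521050-88522929) 92.0%, with 3 of 6. All snoRNA genes of these hosts lay inside such an exon, as did those of Snhg12 (chr4:132308623-132311024) and Snhg8 (chr3:123507552-123508404), 24 of the 27 in all. Snora73b in Snhg3 (chr4:132348014-132353686) and Snord87 in Snhg6 (chr1:9941959-9944118) lay in introns, and Snora73a lay partly in an exon. The deposited RPKM and counts implied gene model lengths of 2969 bases for Snhg1, 3760 for Gas5, 1730 for Snhg5 and 986 for Snhg3, the same as the exons merged here. For Snhg12 the implied length was 1626 rather than 2402 bases, and for Snhg8 it was 604 rather than 853, so the authors' models of these 2 genes were shorter.

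**Figure D1:**
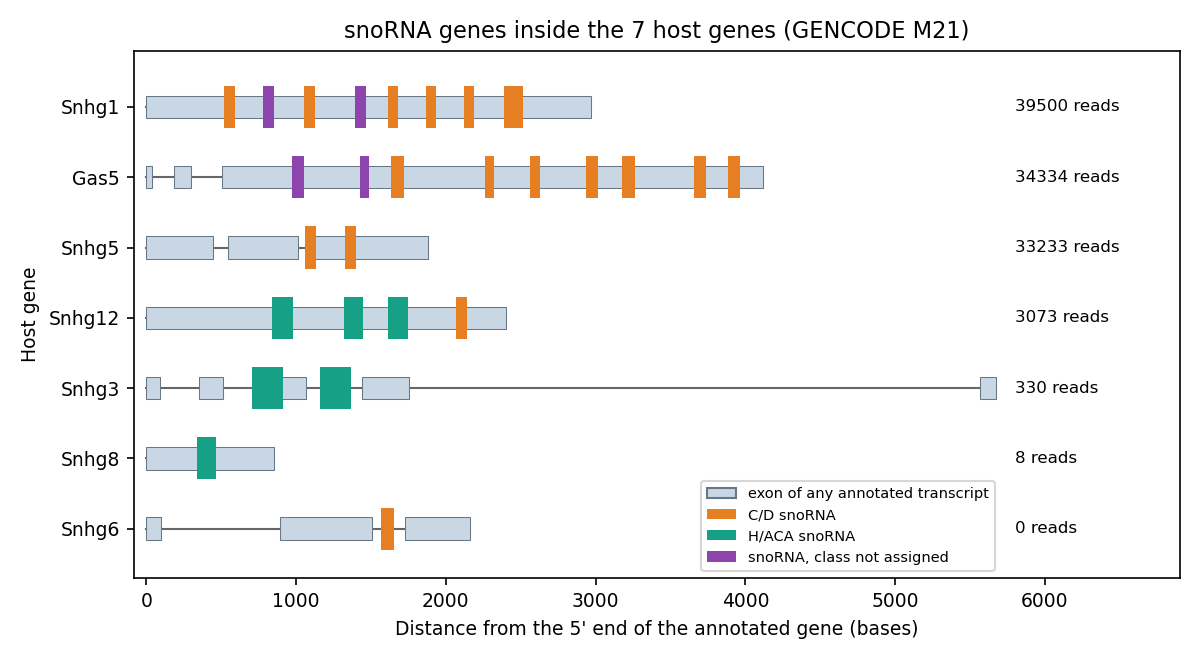
Maps of the 7 host genes drawn by distance in bases from the 5′ end of each gene (x axis); pale boxes are exons of any annotated transcript, coloured boxes are snoRNA genes by class, and the reads over 17 libraries stand at the right. Snhg1, Gas5 and Snhg5, with 39500, 34334 and 33233 reads, carry their snoRNAs inside exons, as does Snhg8 with 8 reads, while Snhg6, with 0 reads, and Snhg3, with 330, have none wholly inside an exon.

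The snoRNA genes themselves were listed without reads. Of the 27 inside the 7 hosts, 25 had a row of their own in the files, and 0 of the 25 had a count or an RPKM above 0 in any library. Over all snoRNA rows of the files, these included, counts were above 0 for 0 of 126 inside an exon of another gene, 0 of 514 inside a gene but not an exon and 0 of 814 outside genes. RPKM was above 0 for 1, 1 and 25 of them, respectively. The files give 1 count per gene and not where in the gene the reads fell, so reads from a spliced host RNA and reads from a snoRNA inside its exons cannot be told apart here.

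Together the 7 host genes held 110478 reads, 24.0% of the 461157 counts outside the 4 dominant genes. Snhg1 (39500 reads), Gas5 (34334 reads) and Snhg5 (33233 reads) were the fifth, sixth and seventh most-read genes of all and held 96.9% of the host gene reads. Snhg12 had 3073 reads (rank 24) and Snhg3 had 330 reads (rank 113). These 5 genes had reads in every library. Snhg8 had 8 reads spread over 7 libraries, with at most 2 in any. Snhg6 was listed at 0 in count and RPKM in all 17 libraries. At 3 counts per library, a count of 0 allows a share of up to 0.00675% in the deepest library and 0.0295% in the shallowest, which covers counting error only.

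Per length, Snhg5 rather than Snhg1 was highest. The median RPKM over 17 libraries was 232 for Snhg5 (range 70.3 to 584), 120 for Snhg1 (20.1 to 470), 94.4 for Gas5 (24.2 to 748), 26.0 for Snhg12 (4.21 to 55.9) and 4.47 for Snhg3 (0.701 to 14.9). The ranges of Snhg5, Snhg1 and Gas5 overlapped through most of their length. The range of Snhg3 stayed below those of the leading 3. Within libraries, the RPKM of Snhg5 was above that of Gas5 in all but MG replicate 6 (570 against 748). Snhg5 was above Snhg1 in all but AG replicate 2 and GC replicates 2 and 4. By reads, the leading gene changed between libraries. Snhg1 led in 2 AG, 1 MG and 3 GC libraries, Snhg5 in 1 AG, 3 MG and 2 GC libraries, and Gas5 in 3 AG and 2 MG libraries. The ratio of Gas5 to Snhg1 reads within a library ran from 0.648 to 1.57 in AG (median 1.12), from 0.753 to 2.04 in MG (median 1.00) and from 0.396 to 0.944 in GC (median 0.535), and the groups overlapped.

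The 7 genes were set among all annotated hosts of snoRNAs that have a row of their own. With a C/D snoRNA inside an exon there were 27 other hosts, with a median of 483 reads over the 17 libraries and at most 9496 (Rack1, a ribosomal scaffold protein). With only another kind of snoRNA inside an exon there were 32 other hosts, with a median of 68.5 reads. With no snoRNA wholly inside an exon there were 231 other hosts, with a median of 4.0 reads. Snhg1, Gas5, Snhg5 and Snhg12 belonged to the first kind, Snhg8 to the second, and Snhg3 and Snhg6 to the third. The kinds and lengths rest on the GENCODE exons, and whether the shorter models counted for Snhg12 and Snhg8 hold their snoRNAs was not tested. Reads per kilobase of exon gave the same order of the medians, at 122, 19.0 and 0.696. No test was run on these counts.

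**Figure D2:**
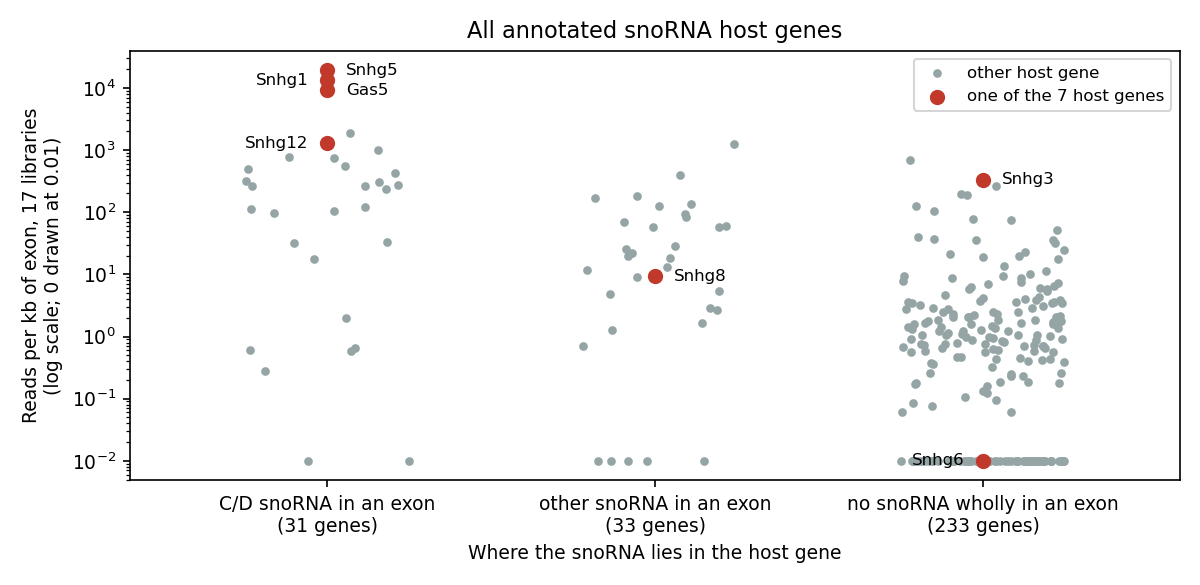
Reads per kilobase of exon summed over 17 libraries (y axis, log scale, genes without reads drawn at 0.01) for every annotated snoRNA host, by where the snoRNA lies in the gene (x axis); grey points are other hosts and red points the 7 host genes. Snhg5, Snhg1 and Gas5 lie above all other hosts, Snhg8 lies among hosts with another snoRNA in an exon, and Snhg6 is listed at 0.

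The summed share of the 7 host genes varied widely within each group. It ran from 7.36 to 23.4% in AG (median 13.3%), from 11.5 to 47.4% in MG (median 20.1%), and stood at 9.31, 25.01, 26.5, 45.6 and 29.8% in GC replicates 1 to 5. The highest shares belonged to MG replicate 6 and GC replicate 4, and the groups overlapped. In both of these libraries 1 host gene led, Gas5 at 25.3% in MG replicate 6 and Snhg1 at 22.7% in GC replicate 4. GC replicate 1, the library with the fewest counts, was lowest of its group for each of the 5 host genes found in every library.

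**Figure D3:**
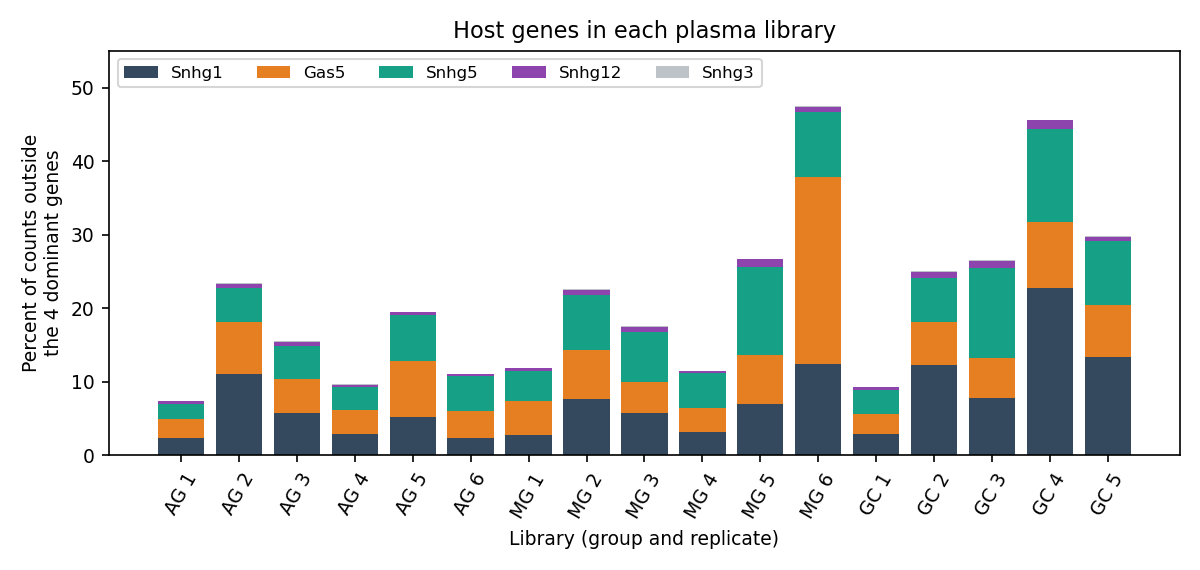
Percent of counts outside the 4 dominant genes (y axis) held by each of 5 host genes in every library (x axis), stacked. The sum runs from 7.36% in AG replicate 1 to 47.4% in MG replicate 6, where Gas5 alone makes up 25.3%.

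The first comparison, MG against AG, asks what changed with gravity alone during flight. Gas5 and Snhg5 lay higher in MG in the fit, but neither passed correction across genes. Snhg5, host of the Snord50 pair printed above, ran from 4.14 to 11.97% in MG (median 7.09%, n = 6) and from 2.11 to 6.15% in AG (median 4.50%, n = 6). The upper AG libraries overlapped the lower MG libraries. The difference of mean log2 shares was 0.79 (exact two-sided permutation p = 0.0325, Benjamini-Hochberg adjusted p = 0.444 over 6270 genes). It was the only 1 of the 5 host genes with an exact p under 0.05, against 0.558% of all genes higher in MG and 8.58% lower. These shares of all genes changed with the pseudocount. With a pseudocount of 1 read, 0.239% of all genes were higher and 12.4% lower, and as untransformed shares 1.12% and 1.1%. Without AG replicate 1 or 4, or MG replicate 2, 3, 5 or 6, the exact permutation p of Snhg5 was 0.0541 to 0.0649. In edgeR's quasi-likelihood fit over all genes that passed its filter Snhg5 differed by a log2 fold change of 1.12 ± 0.49 (SE; adjusted p = 0.328).

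Gas5, whose locus carries 9 snoRNA genes, ran from 3.33 to 25.3% in MG (median 5.61%) and from 2.56 to 7.68% in AG (median 4.11%). All MG libraries other than replicate 6 lay within the AG range. The fitted log2 fold change was 1.51 ± 0.63 (SE; edgeR adjusted p = 0.281), and without MG replicate 6 it was 0.14. The difference of log2 shares was 0.55 (exact permutation p = 0.320).

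Snhg1 ran from 2.72 to 12.4% in MG (median 6.35%) and from 2.32 to 11.03% in AG (median 4.07%), with a fitted log2 fold change of 0.94 ± 0.60 (SE; edgeR adjusted p = 0.536). Snhg12 ran from 0.280 to 1.08% in MG (median 0.673%) and from 0.269 to 0.652% in AG (median 0.396%), with 0.86 ± 0.48 (SE; edgeR adjusted p = 0.459). MG and AG overlapped for both genes. Snhg3, host of the H/ACA pair Snora73a and Snora73b, ran from 0.0576 to 0.133% in MG and from 0.0101 to 0.102% in AG, with 0.93 ± 0.52 (SE; edgeR adjusted p = 0.459). Its lowest AG library held 2 reads. Without MG replicate 6 the fitted values fell to 0.20 for Snhg1 and 0.40 for Snhg3. Of all tested genes 0.0% passed the adjusted threshold here. At an unadjusted p under 0.05, 4.78% were higher in MG, Gas5 and Snhg5 among them, and 8.46% lower. The median log2 fold change was 0.94 over the 5 host genes, or 0.40 without MG replicate 6, and 0.17 over all tested genes in both cases.

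The denominator decided how many host genes passed the exact test. As a share of all counts, the 4 dominant genes included, Snhg5 stood at 0.254 to 0.542% in AG, 1.00 to 3.52% in MG and 0.756 to 2.48% in GC, and every AG library lay below every MG and GC library. On this scale all 5 host genes were higher in MG than AG with an exact permutation p under 0.05, from 0.00216, the lowest that 6 against 6 libraries can give, for Snhg5 and Snhg3 to 0.0173 for Snhg1, with log2 differences of 1.60 to 1.96. Over all 6270 genes, 17.1% were higher on this scale with an exact p under 0.05, the median difference was 0.79, and 0 passed Benjamini-Hochberg adjustment. Snhg5 and Snhg3 were the only host genes whose MG libraries all lay above the AG libraries, which 0.447% of all genes did. The 4 dominant genes took a larger share in AG than in either other group (above), and that share sets this scale. The change of denominator moved the median difference over all genes from -0.37 to 0.79. It moved the summed log2 share of the 7 host genes from 0.60 to 1.77. The part of the 4 dominant genes in the result was not tested separately.

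**Figure D4:**
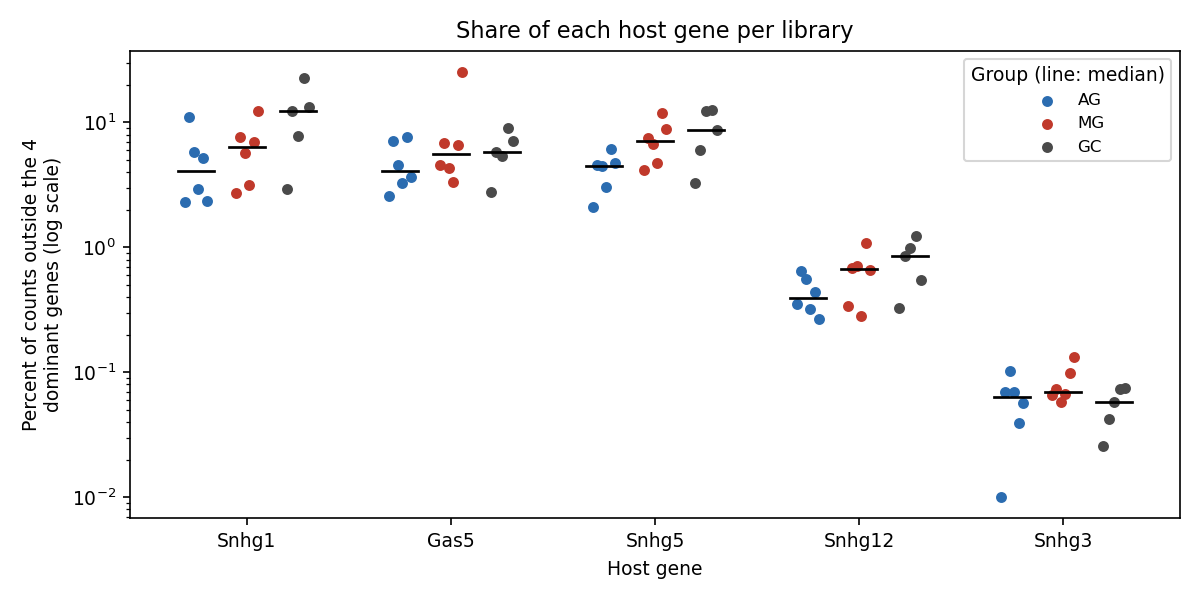
Percent of counts outside the 4 dominant genes (y axis, log scale) for 5 host genes in AG (blue), MG (red) and GC (grey); each point is a library and the black line the group median. The groups overlap for every gene, and the Gas5 point of MG replicate 6 at 25.3% stands above the other libraries.

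The comparison of MG with GC sets flight in microgravity against the ground, with launch and return included. No host gene differed beyond the spread between libraries. Snhg1 stood at 2.92, 12.3, 7.75, 22.7 and 13.3% in GC replicates 1 to 5, all within or above the MG range. Its fitted log2 fold change was -0.84 ± 0.62 (SE; edgeR adjusted p = 0.994). Snhg5 stood at 3.28, 6.06, 12.3, 12.6 and 8.67% in GC, against a median of 7.09% in MG, with -0.22 ± 0.51. Gas5 stood at 2.75, 5.78, 5.43, 9.004 and 7.14% in GC, with 0.84 ± 0.65, and without MG replicate 6 its sign turned to -0.54. All 3 genes overlapped between MG and GC.

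Snhg12 stood at 0.328, 0.850, 0.998, 1.23 and 0.551% in GC, with a fitted log2 fold change of -0.40 ± 0.49. Snhg3 stood at 0.0257, 0.0420, 0.0582, 0.0730 and 0.0748%, with 0.76 ± 0.54. The adjusted p in edgeR was 0.994 for each of the 5 host genes, and 0.0% of all tested genes passed. Unadjusted, 3.68% of genes were higher in MG and 0.735% lower with p under 0.05, and no host gene was among them. The exact permutation p of the shares ran from 0.0866 (Snhg3) to 0.758 (Gas5), where 2.26% of all genes were higher in MG and 1.18% lower with an exact p under 0.05. As a share of all counts Snhg3 had a log2 difference of 0.78 (exact permutation p = 0.0390), and 3.43% of all genes were higher with an exact p under 0.05. In the fit, the signs of Snhg1, Snhg5 and Snhg12 rested on GC replicate 4, without which their log2 fold changes were 0.11, 0.40 and 0.27. Without MG replicate 6 they were -1.59 (edgeR adjusted p = 0.658), -0.57 and -0.67. As log2 shares, Snhg1 (-1.21 to -0.47) and Snhg12 (-0.62 to -0.13) kept their sign whichever library was left out. Snhg5 ran from -0.47 to 0.014.

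The comparison of AG with GC contrasts flight at 1 G with the ground, and it uses the GC and AG libraries already described. Snhg1, Snhg5 and Snhg12 lay lower in AG in the fit, without passing correction. Snhg1 differed by a log2 fold change of -1.78 ± 0.63 (SE; edgeR adjusted p = 0.237). Snhg5 differed by -1.34 ± 0.51 (SE; edgeR adjusted p = 0.288) and Snhg12, whose locus carries Snord99 and 3 H/ACA snoRNAs, by -1.26 ± 0.50 (SE; edgeR adjusted p = 0.294). Gas5 differed by -0.67 ± 0.64 (SE; edgeR adjusted p = 0.702) and Snhg3 by -0.17 ± 0.56 (SE; edgeR adjusted p = 0.893). Of all tested genes 1.47% passed the adjusted threshold and 5.51% were lower in AG at an unadjusted p under 0.05, Snhg1, Snhg5 and Snhg12 among them, against 6.25% higher. The median log2 fold change was -1.26 over the 5 host genes and -0.21 over all tested genes, and without GC replicate 4 these were -0.59 and -0.10.

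**Figure D5:**
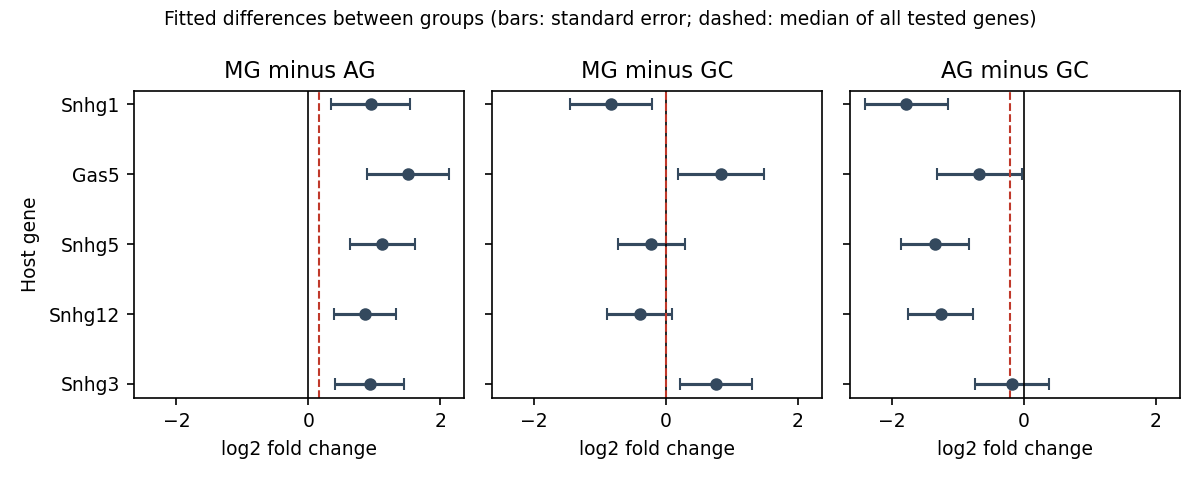
Fitted log2 fold changes (x axis) of 5 host genes for MG minus AG, MG minus GC and AG minus GC; points are edgeR estimates, bars their standard errors, the solid line is 0 and the dashed line the median of all tested genes. The bars of all 5 genes lie above 0 in MG minus AG, and those of Snhg1, Gas5, Snhg5 and Snhg12 lie below 0 in AG minus GC, with none passing adjustment.

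The AG and GC shares overlapped for every host gene. The differences of mean log2 shares were -1.21 for Snhg1 (exact permutation p = 0.0736), -0.96 for Snhg5 (exact permutation p = 0.0519), -0.79 for Snhg12 (exact permutation p = 0.0758), -0.33 for Gas5 (exact permutation p = 0.394) and -0.05 for Snhg3 (exact permutation p = 0.939). Shares of 0.447% of all genes were lower in AG with an exact p under 0.05, and 13.2% were higher. These values changed with the pseudocount, to 0.128% lower and 16.4% higher with 1 read. As untransformed shares 1.24% were lower and 1.31% higher. The fitted differences were smaller without GC replicate 4, at -0.83 for Snhg1, -0.73 for Snhg5, -0.59 for Snhg12 and -0.04 for Gas5, and Snhg3 turned to 0.31. The GC group held both the library with the fewest counts (replicate 1) and the library with the largest Snhg1 share (replicate 4). Without GC replicate 1 the exact permutation p was 0.0190 for Snhg1, 0.00952 for Snhg5 and 0.0190 for Snhg12. As a share of all counts, all 5 genes were lower in AG with exact permutation p between 0.00216 and 0.0303, where 8.69% of all genes were, and Snhg5 and Snhg12 had every AG library below every GC library, where 0.463% of all genes had.

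Genes whose normalised counts followed Snhg1, Snhg3, Snhg5 or Snhg12 most closely across the 17 libraries were mostly other snoRNA hosts. For Snhg1 these were Taf1d (a subunit of a ribosomal RNA transcription factor, Spearman rho 0.93), Rpl5 (0.92) and Tbrg4 (0.90). For Snhg12 they were Rpl7a (0.89), Tlcd1 (0.88) and Zfas1 (0.87). For Snhg5 they were Ep400 (0.87), Gm26917 (0.83) and Eif4g2 (0.82), and for Snhg3 Ep400 (0.74), Eif4a1 (0.74) and Tnpo2 (0.71). Of the 11 different genes named, 9 host an annotated snoRNA, as do 42 of all 267 tested genes outside the 7 host genes (15.7%), these 11 included. The 17 points share library depth and the scaling of each library, and no p is given.

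Among a list of 13 other noncoding hosts, chosen by name, 9 had reads, and Snhg7, Snhg9, Snhg11 and a second Dancr row were listed at 0. The list leaves out hosts such as 1110038B12Rik (1824 reads). Snhg20, Snhg4 and the first Dancr row were not among the annotated hosts compared above, so they stand here by name only. Snhg20 had 4884 reads, with 0.270 to 1.76% in AG, 0.392 to 2.36% in MG and 0.389 to 1.997% in GC. Its fitted log2 fold changes were 0.01 for MG against AG, -0.21 for MG against GC and -0.22 for AG against GC. Snhg4 had 608 reads, Zfas1 357, the first Dancr row 162, Snhg17 94 and Snhg15 39, and none of the 4 noncoding hosts that entered the fit passed adjustment in any comparison. Their median log2 fold change was 0.83 for MG against AG, -0.25 for MG against GC and -1.10 for AG against GC.

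Of a list of 36 protein-coding hosts, which leaves out others such as Tnpo2 (4401 reads), 35 had reads (31658 in all), and the most-read of the list were Rack1 (9496), Eif4a2 (4176), a translation initiation helicase, and Taf1d (2378). Of the 24 that entered the fit, 0 passed adjustment in any comparison, and at an unadjusted p under 0.05, 1 was higher in MG than AG (4.78% of all tested genes were) and 3 were lower in AG than GC (5.51% of all tested genes). Their median log2 fold changes were 0.52, 0.00 and -0.58 for MG against AG, MG against GC and AG against GC. Of 91 ribosomal protein genes 82 had reads (24905 in all, Rack1 included), and of the 25 in the fit 0 passed adjustment, with medians of 0.44, 0.08 and -0.51.

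Transcripts of proteins that work with snoRNAs or on host transcripts were rare apart from Nop56. Of the core proteins of snoRNA particles, Nop56, itself a snoRNA host, had 2053 of 2116 reads, whereas Nop58 had 31, Nop10 had 12 and Fbl, the methyltransferase of the C/D class, was listed at 0. Nop56 alone entered the fit, with log2 fold changes of 0.33, 0.04 and -0.29 and no adjusted call. The 8 nonsense-mediated decay factors had 97 reads in all, led by Smg1 (29), Upf2 (16) and Upf1 (14), and none entered the fit.

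Marker levels of blood cells and other tissues varied among the libraries. Red cell markers (12 of 12 with reads, led by Hba-a2, Hbb-bs and Hba-a1) summed to 5.53 to 14.9% of counts outside the 4 dominant genes in AG, 0.845 to 8.93% in MG and 2.59 to 13.4% in GC. In the fit, 10 of them had a median log2 fold change of -1.13 for MG against AG and 0.89 for AG against GC, and 1 passed adjustment, higher in AG than GC. At an unadjusted p under 0.05, 5 of the 10 were lower in MG than AG (8.46% of all tested genes) and 2 were higher in AG than GC (6.25%). As shares, 6 of the 12 were lower in MG than AG (8.58% of all genes compared) and 4 higher in AG than GC (13.2%) at an exact permutation p under 0.05. Both percentages of all genes changed with the pseudocount, as given above. Platelet markers (8 of 8 with reads) summed to 0.177 to 2.07% in AG, 0.336 to 2.17% in MG and 0.404 to 2.53% in GC, and leukocyte markers (7 of 9, with Cd3e and Ly6c2 at 0) to at most 0.160% in any library. Liver markers (8 of 8) summed to 0.00693 to 1.27% in AG, 0.0199 to 0.996% in MG and 0.0349 to 0.0616% in GC. Alb, the 1 liver marker in the fit, had log2 fold changes of 4.27 for MG against GC (edgeR adjusted p = 0.604) and 3.43 for AG against GC (edgeR adjusted p = 0.366), both with an unadjusted p under 0.05. Skeletal muscle markers (5 of 6, Mylpf at 0) summed to at most 0.142%. No marker of these 4 other lists passed adjustment in any comparison. The part of the markers in the host gene differences was not tested. In bulk plasma RNA, fewer contributing cells and less RNA released per cell cannot be told apart.

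Overlapping genes could share reads with 3 of the hosts. For genes on the opposite strand this holds where counting did not use strand, which the sources used here do not give. Gm17300, on the opposite strand of Snhg3, had 456 reads against 330 for Snhg3, and Rcc1, on the same strand, had 1. Zbtb37, opposite Gas5, had 3 reads and Mcmdc2, opposite Snhg6, had 0.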

How the data were processed

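Plasma cell-free RNA was sequenced from 17 mice, 1 library each. The authors used CLC Genomics Workbench with the mm10 genome and deposited, per library, counts and RPKM for 49585 genes. Trimming, strand setting and the treatment of reads with several matches are not given in the sources used here. RPKM divides by all mapped reads, which the deposited values imply to be 1596032 to 9796884 per library. Another deposited column, TPM, was not used.

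Counts were tested with edgeR's quasi-likelihood test (edgeR 4.0.16, R 4.3.3; TMM scaling, filterByExpr, all 17 libraries in 1 fit, Benjamini-Hochberg over the genes tested, threshold 0.05), which tested 272 genes and left Snhg6 and Snhg8 out. TMM rescaled the AG libraries by 0.484 to 0.929, and MG replicate 6 (0.587) and GC replicate 4 (0.537) stood apart from the other MG and GC libraries (1.11 to 1.89). Shares were compared as log2((reads + 0.5) / (counts outside the 4 dominant genes + 1)) by an exact two-sided permutation test on 6270 genes with at least 5 reads. The lowest p this test can give is 0.00216 in each comparison. No test is given for Snhg8, which had 0 to 2 reads per library. The upper limit given for the share of Snhg6 covers counting error only, and the reads carry no molecular identifiers. The standard errors (SE) come from the edgeR fit and take in the spread between libraries. No libraries agreed within sampling noise.

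Groups came from the sample titles. All 7 host genes were named, with other noncoding hosts of at least 20 reads, the genes with the most reads of each list, and the 3 tested genes with the highest Spearman correlation, which are not reported here for Gas5. The host genes and the lists were chosen with earlier results of these data known. Gene positions and snoRNA sequences came from GENCODE M21. Hosts were compared through snoRNA genes with a row of their own. The scripts were tested on simulated data. Alternatives comprised other scalings, filters, tests, denominators and pseudocounts, a replicate block, and leaving out each replicate.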

Additional observations from a re-analysis of the deposited data

Results flagged for a closer look

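Gas5 in MG replicate 6 held 25.3% of the counts outside the 4 dominant genes, a value far from the 3.33 to 6.79% of the other 5 MG libraries by Dixon's test for an outlying sample. The same library had 11073 Gas5 reads, a Gas5 to Snhg5 ratio of 2.86, the highest of the 17 libraries, and the largest summed share of the 7 host genes in any library. Of 18 groups of libraries tested in this way, 1 was singled out, and chance gives about 0.9.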

How the results depend on the processing

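No host gene passed adjustment in the reported fit. Without a scaling factor beyond the library total, all 5 tested host genes passed in MG against AG (log2 fold changes 1.52 to 2.05), and Snhg1 (-2.16), Snhg5 (-1.999) and Snhg12 (-1.81) passed in AG against GC. Across all 272 tested genes, 17.6% passed as higher in MG than AG and 2.94% as lower in AG than GC under this setting. It moved the median of all genes to 1.21 in MG against AG and -1.11 in AG against GC. Without a filter Gas5 passed in MG against AG (1.61, edgeR adjusted p = 0.0268) and Snhg1 in AG against GC (-1.68, edgeR adjusted p = 0.0484), where 0.0397% of 12605 genes passed as higher and 0.00793% as lower.

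Genes passing across the table in MG against AG numbered 0 as reported, 48 unscaled, 6 with at least 5 reads, 7 without a filter, 9 in DESeq2, 4 in edgeR's exact test, 3 with the replicate block, 36 by the study's criterion of unadjusted p under 0.05 and 1.5-fold change in the same fit (142 in the exact test), and 0 to 10 leaving out replicates (5 without AG replicate 2, 10 without MG replicate 4, 1 without GC replicate 2 or 4). In MG against GC they numbered 0, against 10 with at least 5 reads, 8 unfiltered, 9 in the exact test, 12 by the study's criterion (142 in the exact test), and 0 to 1 leaving out replicates. In AG against GC they numbered 4, against 9 unscaled, 0 with at least 5 reads, 2 unfiltered, 8 in DESeq2, 0 in the exact test, 0 in limma, 1 with the pair's libraries alone, 32 by the study's criterion (131 in the exact test), and 0 to 6 leaving out replicates (0 without GC replicate 2, 3 or 5, 1 without GC replicate 1, 2 without AG replicate 1 or 3 or MG replicate 1).

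Host genes with an exact p under 0.05 in MG against AG numbered 1, but 5 as shares of all counts, 0 as TMM-scaled CPM, 2 and 2 as RPKM with pseudocounts of 1.0 and 0.1 (158 and 163 of all 6270 genes were higher, 2.52% with the larger pseudocount), 0 with the 7 genes also left out of the denominator (an alternative chosen after seeing the data) and 0 to 1 leaving out replicates; without AG replicate 1 or 4 or MG replicate 2, 3, 5 or 6 the exact p of Snhg5 was 0.0541 to 0.0649. In MG against GC the count was 0, but 1 as shares of all counts and 0 to 1 leaving out replicates (Snhg1 without GC replicate 1, where 0.941% of all genes were lower). In AG against GC it was 0, but 5 as shares of all counts, 1 untransformed (1.24% of all genes were lower), 4 and 4 as RPKM (3.97 and 3.67% of all genes were lower), 1 with the added denominator (1.07%) and 0 to 3 leaving out replicates (1 without AG replicate 2, 0.383% of all genes, and 3 without GC replicate 1, 0.542%). The summed log2 share moved from 0.60 to 1.77 in MG against AG and from -0.86 to -1.86 in AG against GC as a share of all counts.

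Signs turned for MG against GC in Gas5 (-0.074 in limma, -0.12 with the replicate block, -0.54 to 1.48 leaving out replicates; as a share -0.074 and -0.080 in RPKM and -0.18 to 0.41 leaving out replicates), in Snhg5 (0.049 unscaled, -0.57 to 0.40 leaving out replicates; as a share 0.0052 of all counts and -0.47 to 0.014 leaving out replicates), and in Snhg1 (-1.59 to 0.11) and Snhg12 (-0.67 to 0.27) leaving out replicates, where GC replicate 4 gave the highest value of each. Snhg3 in AG against GC ran from -0.39 to 0.31 leaving out replicates, and as a share was 0.0032 untransformed and -0.28 to 0.35 leaving out replicates. None of these passed its threshold, and the causes were not tested. Of 417 fold changes under the alternatives 398 kept direction and side of the threshold, and of 360 shares 314 did. DESeq2 gave Gas5 no adjusted p.

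Replicate numbers did not pair the libraries: same-numbered libraries correlated at -0.45 to 0.53 (median 0.04 over 16 pairs). Under the replicate block 5 genes passed in AG against GC and no host gene did in any comparison. In MG against AG the block gave log2 fold changes of 0.63 for Gas5 and 0.49 for Snhg1. Depth limits Snhg3, with 2 to 58 reads per library, and leaves Snhg8 and Snhg6 unresolved.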
